A study of Mus musculus with 22 samples.

Results

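The 38 genes described here mark macrophages and other cells of the blood lineage, and they were chosen by symbol, as a fixed list, from the gene column of the deposited RNA tables. All 38 had a row in each of the 4 libraries, among 16271 genes that did, and 29 of them reached the level needed for testing. They were grouped by role into complement (5 genes), Fc receptors (4), other surface receptors (17), and cytoplasmic, nuclear and remaining proteins (12). The list was drawn up with earlier results of these data known, so its direction is described and not offered as independent evidence.

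The libraries came from primary mouse embryonic fibroblasts (MEFs), cells grown out from the body of C57BL/6 embryos at stage E13.5 and used at passage 3 to 4. The first group was wild type for Lsh (Lsh+/+) and the second lacked it (Lsh-/-, here KO), and the labels name no agent beyond the shared serum-containing medium. Lsh, encoded by Hells, is a chromatin remodeller of the SNF2 family that is needed for normal DNA methylation. Each group had 2 libraries that the labels call biological replicates, named WT1, WT2, KO1 and KO2 after genotype and replicate number. Of 22 samples in the labels, the 18 input, RNA polymerase II and histone mark samples were not analysed here. Which part of Hells was deleted, whether embryos were pooled, and whether the number marks a shared litter or day is not stated, so p-values measure only the spread between these libraries.

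Macrophages arise early in the embryo, first from the yolk sac, and settle in nearly every tissue, where they clear dying cells and debris. A primary culture of embryo body can hold such cells beside the fibroblasts. Their growth and survival depend on the receptor encoded by Csf1r, whose ligand Csf1 is made by fibroblasts, and their gene programme depends on the transcription factor PU.1, encoded by Sfpi1 (now Spi1). In bulk RNA, fewer cells of a type and less RNA per cell cannot be told apart, which holds for every value below.

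PU.1 binds purine-rich DNA of the ETS type, so the promoters of the members were searched for GAGGAA on both strands (TTCCTC on the other). The RefSeq promoter table (build GRCm38.p6, not the mm9 build of the expression files) held 29 of the 38 members. In the 250 bases upstream of the first listed start, 15 of 29 (51.7%) held the motif, against 23.3% of all 32851 promoters in the table. CG dinucleotides were few: 24 of the 29 had at most 5, against 49.6% of all promoters. The shares of all promoters count every listed start of a gene, whereas the members were counted by the first start only. Second starts were listed for Fcgr3, with a match, and for Ptprc, Folr2, Coro1a, F13a1 and Lcp1, without a match. Matches are a description of these letters and not evidence of binding. The first 4 sequences are shown because those genes were lower in KO and carry the motif, in 1 place in C1qb, C1qc and Laptm5 and in 3 in Mrc1. Cd53 is shown because it carries the motif as well but lay higher in both KO libraries. Rgs10 is shown because it has no match, has 27 CG dinucleotides and stood at 108.2% and 87.5% of WT. C5ar1, Fcer1g, Lcp1, Lyz2, Mpeg1 and Cx3cr1, not shown, have no match either, yet their levels were below WT in KO1 and in KO2. The sequences shown are thus examples only, and whether the motif goes with a lower level in KO was not tested. Each sequence is the strand of the gene, 5′ to 3′, ending at the base before the start, with the motif in capitals.
C1qb (chr4:136886201-136886450, minus strand): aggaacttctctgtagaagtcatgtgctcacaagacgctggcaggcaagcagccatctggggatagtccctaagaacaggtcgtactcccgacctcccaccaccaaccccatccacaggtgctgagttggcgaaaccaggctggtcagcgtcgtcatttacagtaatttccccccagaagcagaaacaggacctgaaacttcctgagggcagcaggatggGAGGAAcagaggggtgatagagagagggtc
C1qc (chr4:136892915-136893164, minus strand): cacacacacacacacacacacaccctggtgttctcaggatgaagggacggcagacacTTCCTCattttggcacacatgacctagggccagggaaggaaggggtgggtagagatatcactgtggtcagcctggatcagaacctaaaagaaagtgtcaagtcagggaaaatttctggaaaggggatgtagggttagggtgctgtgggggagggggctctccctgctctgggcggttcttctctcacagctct
Laptm5 (chr4:130913066-130913315, plus strand): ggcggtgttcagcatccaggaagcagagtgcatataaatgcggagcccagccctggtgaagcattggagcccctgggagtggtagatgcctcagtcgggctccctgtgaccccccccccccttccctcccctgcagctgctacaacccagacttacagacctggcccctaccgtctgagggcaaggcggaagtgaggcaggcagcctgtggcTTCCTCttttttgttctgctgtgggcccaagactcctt
Mrc1 (chr2:14229164-14229413, plus strand): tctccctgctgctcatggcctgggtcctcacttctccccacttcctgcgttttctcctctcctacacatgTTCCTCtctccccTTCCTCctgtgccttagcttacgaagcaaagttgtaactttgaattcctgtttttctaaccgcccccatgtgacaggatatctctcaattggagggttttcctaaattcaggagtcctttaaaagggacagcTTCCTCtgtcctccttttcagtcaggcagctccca
Cd53 (chr3:106790150-106790399, minus strand): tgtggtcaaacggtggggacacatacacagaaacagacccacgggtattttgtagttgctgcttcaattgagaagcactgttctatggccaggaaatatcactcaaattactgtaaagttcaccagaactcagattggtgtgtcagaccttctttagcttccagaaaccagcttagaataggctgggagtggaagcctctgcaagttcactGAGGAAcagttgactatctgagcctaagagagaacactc
Rgs10 (chr7:128418173-128418422, minus strand): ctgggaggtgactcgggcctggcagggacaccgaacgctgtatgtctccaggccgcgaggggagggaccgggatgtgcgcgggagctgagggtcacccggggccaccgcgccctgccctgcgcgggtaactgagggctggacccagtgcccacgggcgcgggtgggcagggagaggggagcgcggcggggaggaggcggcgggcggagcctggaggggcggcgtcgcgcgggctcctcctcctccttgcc

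Levels are in RPKM, the reads on a transcript divided by its kilobases and by the M (mega) mapped reads, and were summed over a gene's transcripts. A pair of values for a genotype gives the number 1 library first, and 4 values in a row follow the order WT1, WT2, KO1, KO2. The depths recovered from the tables were 132.2, 176.6, 122.5 and 136.1 M mapped reads, so 1 read on a transcript of 1 kilobase is worth 0.00757, 0.00566, 0.00817 and 0.00735 RPKM. Hells was at 0.865 and 1.06 RPKM in WT and at 0.430 and 0.550 in KO, lower in KO in both numbers but not called (limma adjusted p 0.1996 with the number as a term). Of 20 fibroblast markers, all 20 were tested, and the matrix protein gene Sparc was at 1121, 1497, 1238 and 1634 RPKM. The libraries stood apart by replicate number: across the 11149 genes tested Pearson's r between the genotypes was 0.980 in number 1 and 0.983 in number 2, whereas the WT pair had 0.893 and the KO pair 0.897. KO minus WT is therefore compared within each number and in 2 limma fits on log2(RPKM + 0.5), one with genotype alone (the planned design) and one that also holds the number. Gapdh, a gene with many pseudogene copies, was listed at 0 in WT2, so a value of 0 cannot be read as absence.

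Most members were lower in the KO libraries. Of the 38, 32 were lower in KO than in WT within both replicate numbers, against 29.0% of all genes in the 4 libraries, 1 (Cd53) was higher in both against 23.1%, and 5 (Tyrobp, Cd163, Rgs10, Cyth4 and F13a1) went opposite ways. KO1 was the lowest library for 33 of the 38 and WT2 the highest for 36, while KO2 lay above WT1 for 32. Of those 32, all but Cd53, whose KO values both lay above both WT values, had overlapping groups. The same order of libraries was not counted over all genes. Of all genes tested, 35.8% were called higher in number 2 by limma's fit with genotype and number. Of the 29 tested, 24 were lower in both, against 31.4% of all genes tested, and 12 were at 50% of WT or less in both, against 0.484%. The summed level of all 38 was 79.5 RPKM in WT1 and 19.6 in KO1 (24.6%), and 244.9 in WT2 and 123.7 in KO2 (50.5%). For the median of the 38 members KO1 stood at 13.2% of WT1 and KO2 at 50.2% of WT2. Over the 29 tested members these median shares were 14.1% and 50.1%, whereas over all genes tested they were 94.3% and 101.5%. In number 1, 21 of the 38 were at 20% of WT1 or less; among the genes tested it was 15 of 29 members and 0.664% of all.

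With genotype as the only term limma called 0 of 29 tested members at an adjusted p below 0.05 (0 of 11149 genes, 0%; adjusted p 1.00 for each member), and at an unadjusted p below 0.05 it had 41 genes and 0 members. In that design the difference between the replicate numbers counts as error, and the median log2 change of the members, -0.78, became -0.022 without KO1 and -0.047 without WT2. When the fit also held the number, 9 of the 29 fell and 0 rose, where 0.296% of all genes fell and 0.377% rose. They were C1qc, C5ar1, Fcer1g, Fcgr3, Cd14, Cd52, Laptm5, Lcp1 and Sfpi1. At an unadjusted p below 0.05, 22 of the 29 were lower, against 4.92% of all genes. "Fell" below refers to that fit. Its calls were not stable: with a pseudocount of 0.1 in place of 0.5 only that of C5ar1 was kept (0.0718% of all genes fell), with a pseudocount of 1 those of C5ar1 and Fcgr3 were lost and C1qa and C1qb were called, and with no filter on low values, or the highest transcript in place of the sum, 0 members were called.

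**Figure D1:**
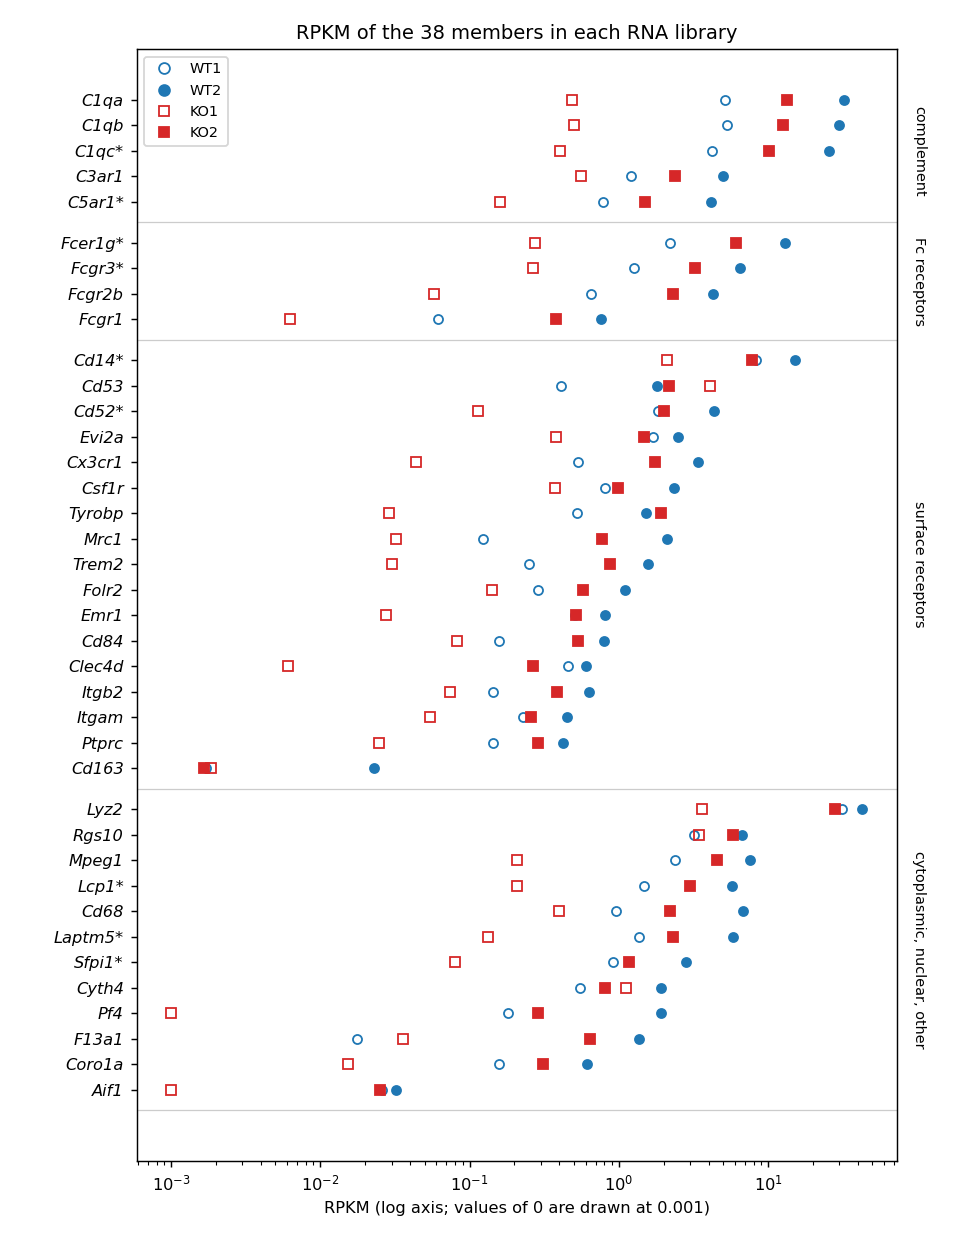
RPKM (log axis) of each of the 38 members in WT1, WT2, KO1 and KO2, grouped by role, with an asterisk on the 9 that fell when the limma fit held the number. For most genes KO1 is the lowest point and WT2 the highest, while KO2 lies near or above WT1. Pf4 and Aif1 were listed at 0 in KO1 and are drawn at 0.001.

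C1q is the recognition protein of the classical complement pathway, built from the chains of C1qa, C1qb and C1qc and made mainly by macrophages. The 3 genes lie side by side on chromosome 4 (mm9, 136436061 to 136454760). C1qa was at 5.18 and 32.3 RPKM in WT and at 0.483 and 13.48 in KO. C1qb was at 5.27 and 29.9 RPKM in WT and at 0.5002 and 12.6 in KO, and C1qc at 4.1997 and 25.5 in WT and at 0.403 and 10.2 in KO. KO1 was the lowest library and WT2 the highest for each chain, and the groups overlap because KO2 lies above WT1. Within number 1 KO stood at 9.32%, 9.49% and 9.59% of WT for C1qa, C1qb and C1qc, and within number 2 at 41.7%, 42.2% and 39.8%. The chains kept nearly the same proportions throughout: the RPKM ratio of C1qa to C1qc was 1.23, 1.27, 1.20 and 1.33 in the 4 libraries, and that of C1qb to C1qc was 1.25, 1.17, 1.24 and 1.24.

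With the number in the fit C1qc fell (log2 change -1.83, SE 0.26, limma adjusted p 0.0365). C1qa (-1.88, SE 0.32, limma adjusted p 0.118) and C1qb (-1.87, SE 0.33, 0.122) missed the threshold with values of similar size, and passed it at a pseudocount of 1 (0.0267 and 0.0296). Among the anaphylatoxin receptors, through which fragments of complement activate myeloid cells, C5ar1 was at 0.779 and 4.13 RPKM in WT and at 0.160 and 1.496 in KO. C5ar1 fell (log2 change -1.08, SE 0.18, limma adjusted p 0.0230), with an adjusted p of 0.0402 at a pseudocount of 0.1 and of 0.0534, which misses the threshold, at a pseudocount of 1. C3ar1 was at 1.21 and 4.97 RPKM in WT and at 0.562 and 2.39 in KO, so that KO held 46.6% and 48.1% of WT in the 2 numbers (adjusted p 0.0942). Unlike C1q, C3ar1 had about the same ratio in both numbers.

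Complement genes outside C1q, from a list of 33 that also holds the integrin gene Itgb3, did not follow. Of the 27 present, 2 had lower and 11 had higher KO values within both numbers, but 15 stayed below 0.5 RPKM in every library. Of the 11 tested, 1 was lower and 7 were higher within both numbers, and 0 were called. C1s, a protease that joins C1q, was at 0.656 and 14.4 RPKM in WT and at 4.15 and 25.0 in KO (limma adjusted p 0.173 with the number as a term). Cd59a, which shields cells from lysis by complement, was at 10.86 and 4.904 RPKM in WT and at 14.56 and 1.598 in KO.

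Fc receptors bind the constant part of antibodies, and most of them signal through the shared gamma chain encoded by Fcer1g. Fcer1g (chromosome 1, 173159703 to 173164481) was at 2.22 and 12.97 RPKM in WT and at 0.273 and 6.05 in KO, and it fell (log2 change -1.43, SE 0.21, limma adjusted p 0.0172). Fcgr3, an activating receptor for IgG, was at 1.26 and 6.45 RPKM in WT and at 0.266 and 3.23 in KO, and it fell as well (-1.05, SE 0.19, limma adjusted p 0.0311). Fcgr2b, the inhibitory receptor, was at 0.651 and 4.25 RPKM in WT and at 0.0580 and 2.29 in KO (adjusted p 0.0540). Fcgr1, the high-affinity receptor, was low, at 0.0614 and 0.759 RPKM in WT and at 0.00631 and 0.380 in KO, and was not tested. All 4 were lower in KO within both numbers, with KO2 between 46.7% and 53.9% of WT2, and KO1 between 8.92% and 21.1% of WT1. Fcgr2b, Fcgr3 and their relative Fcgr4 are alike in sequence, so reads shared between them would leave their levels uncertain.

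Among the other surface receptors Cd14, the co-receptor for bacterial lipopolysaccharide, had the highest WT levels, with 8.25 and 15.2 RPKM in WT and 2.09 and 7.77 in KO. Both KO values lay below both WT values, and Cd14 fell (log2 change -1.34, SE 0.21, limma adjusted p 0.0288). Separation of this kind was seen in 5 of the 38 members (Cd14, Evi2a, Clec4d, Lyz2 and Aif1), against 8.02% of all genes. Cd52, a short glycoprotein of lymphocytes and macrophages, was at 1.82 and 4.36 RPKM in WT and at 0.114 and 2.00 in KO, and fell (-1.44, SE 0.24, limma adjusted p 0.0406).

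Csf1r, the receptor for the growth factor on which macrophages depend, was at 0.803 and 2.35 RPKM in WT and at 0.373 and 0.980 in KO. For Csf1r, KO held 46.5% of WT in number 1 and 41.7% in number 2 (log2 change -0.76, SE 0.18, limma adjusted p 0.102). For C1qc these shares were 9.59% and 39.8%. The RPKM ratio of C1qc to Csf1r was 5.23, 10.9, 1.08 and 10.4 in the 4 libraries, lowest in KO1. Emr1, the macrophage antigen now called Adgre1, was at 0.508 and 0.811 RPKM in WT and at 0.0277 and 0.516 in KO (-0.65, SE 0.17, limma adjusted p 0.165). Ptprc, the CD45 phosphatase found on all white blood cells, stayed below 0.5 RPKM in every library, with 0.144 and 0.423 in WT and 0.0249 and 0.289 in KO, and was not tested.

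The beta-2 integrin pair that mediates adhesion of myeloid cells was low too. Itgam, its alpha chain, was at 0.228 and 0.446 RPKM in WT and at 0.0541 and 0.257 in KO. Itgb2, its beta chain, was at 0.143 and 0.631 RPKM in WT and at 0.0742 and 0.385 in KO. Both were lower in KO within each number and neither was tested. Cx3cr1, the fractalkine receptor of monocytes and microglia, was at 0.536 and 3.40 RPKM in WT and at 0.0438 and 1.75 in KO (adjusted p 0.0540). Evi2a, a membrane protein gene, was at 1.69 and 2.48 RPKM in WT and at 0.380 and 1.48 in KO (0.0840). It overlaps Nf1 on the opposite strand, and Nf1 was at 3.42, 4.26, 2.95 and 4.40 RPKM in the 4 libraries. The overlap is of whole transcript spans, and whether exons overlap was not tested. Only reads from a shared stretch could not be told apart without strand.

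Mrc1, Folr2, Trem2, Cd163, Cd84 and Clec4d were each below 0.5 RPKM in both number 1 libraries. Mrc1, the mannose receptor, was at 0.122 and 2.09 RPKM in WT and at 0.0322 and 0.773 in KO. Folr2, a folate receptor, was at 0.289 and 1.09 RPKM in WT and at 0.142 and 0.579 in KO, and Trem2, a lipid sensor of phagocytes, at 0.250 and 1.58 in WT and at 0.0300 and 0.871 in KO. None of the 3 was called (adjusted p 0.313, 0.394 and 0.196). Cd163, the scavenger receptor for haemoglobin, stayed at a few reads per kilobase or fewer, with 0.00171 and 0.0230 RPKM in WT and 0.00184 and 0.00166 in KO. Cd84, an adhesion receptor of the SLAM family, was at 0.156 and 0.798 RPKM in WT and at 0.0819 and 0.536 in KO, and Clec4d, a C-type lectin, at 0.454 and 0.598 in WT and at 0.00612 and 0.264 in KO. The KO1 value of Clec4d is below that of 1 read per kilobase.

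Tyrobp encodes DAP12, the adaptor through which Trem2 and other receptors signal, and it departed from its partners. It was at 0.521 and 1.52 RPKM in WT and at 0.0289 and 1.91 in KO, so that KO held 5.53% of WT in number 1 and 125.4% in number 2 (limma adjusted p 0.853). The RPKM ratio of Trem2 to Tyrobp was 0.480 and 1.04 in WT and 1.04 and 0.457 in KO. Both genes stood at a few reads per kilobase in KO1, so the ratio and the share of WT there rest on few reads. Cd53, a tetraspanin of white blood cells on chromosome 3 (106561779 to 106593068), was the member higher in KO within both numbers. It was at 0.408 and 1.80 RPKM in WT and at 4.08 and 2.17 in KO, so both KO values lay above both WT values and KO1, the lowest library for most members, was the highest. Cd53 stood at 10.00 times WT1 in KO1 and at 1.20 times WT2 in KO2, and was not called (log2 change 1.27, SE 0.70, limma adjusted p 0.805). Set against Laptm5, the RPKM ratio of Cd53 was 0.298, 0.307 and 0.935 in WT1, WT2 and KO2 and 30.7 in KO1.

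**Figure D2:**
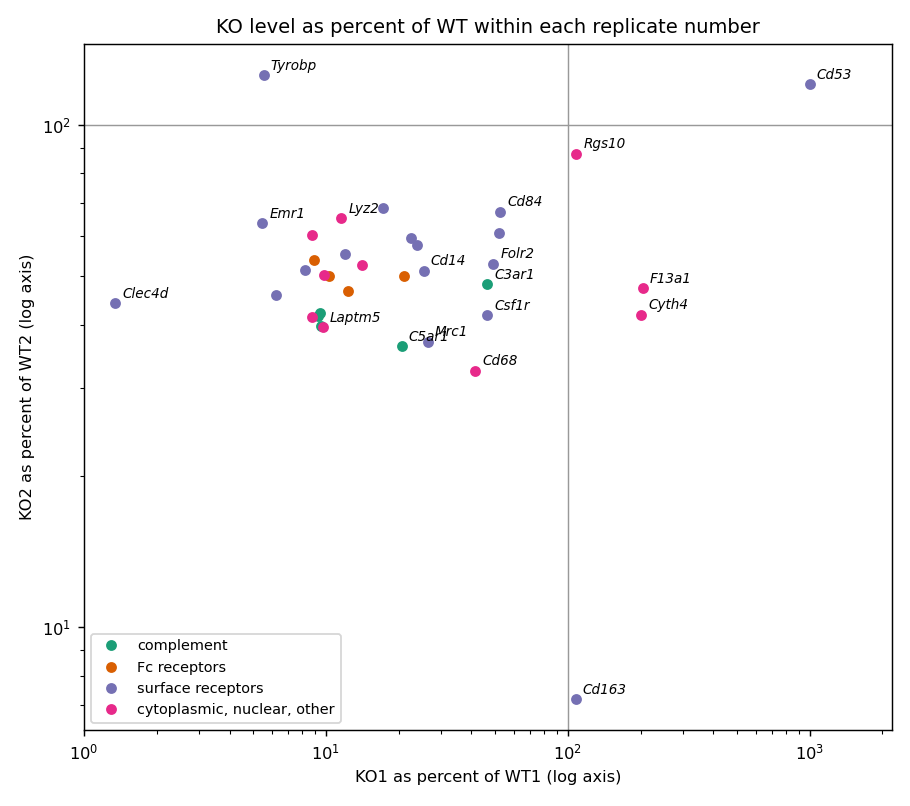
KO as percent of WT within number 1 (horizontal, log axis) and number 2 (vertical, log axis) for the 36 members above 0 in KO1, coloured by role, with lines at 100%. Members lower in both numbers lie between 1.35% and 52.4% in number 1 and between 32.4% and 68.3% in number 2, and Cd53 lies alone above 100% in both.

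Lyz2, the lysozyme of macrophages and granulocytes, had the highest level of all members, with 31.1 and 42.9 RPKM in WT and 3.61 and 28.0 in KO. Both KO values lay below both WT values, but the 2 differences were unequal, with KO at 11.6% of WT in number 1 and 65.2% in number 2, and Lyz2 was not called (log2 change -1.78, SE 0.85, limma adjusted p 0.796). Its close relative Lyz1 was at most at 0.0406 RPKM. Mpeg1, a pore-forming protein of phagosomes, was at 2.37 and 7.51 RPKM in WT and at 0.207 and 4.54 in KO (adjusted p 0.253). Cd68, a glycoprotein of lysosomes in macrophages, was at 0.961 and 6.76 RPKM in WT and at 0.397 and 2.19 in KO (0.0564).

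Laptm5, a lysosomal membrane protein of blood cells on chromosome 4 (130469249 to 130492064), had the lowest adjusted p of the members. It was at 1.37 and 5.87 RPKM in WT and at 0.133 and 2.32 in KO, and it fell (log2 change -1.37, SE 0.19, limma adjusted p 0.00782). Sfpi1 (chromosome 2, 90936954 to 90955914), the gene of PU.1, was at 0.908 and 2.83 RPKM in WT and at 0.0796 and 1.17 in KO, and it fell (-1.14, SE 0.17, limma adjusted p 0.0154). Lcp1, the actin-bundling plastin of leukocytes, was at 1.49 and 5.72 RPKM in WT and at 0.209 and 3.01 in KO, and it fell (-1.15, SE 0.21, limma adjusted p 0.0329). KO1 held 9.70%, 8.77% and 14.1% of WT1 for Laptm5, Sfpi1 and Lcp1, where the median of the 38 members was 13.2%. KO2 held 39.5%, 41.4% and 52.6% of WT2, where that median was 50.2%.

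Coro1a, a coronin of the actin cortex in leukocytes, was at 0.156 and 0.613 RPKM in WT and at 0.0153 and 0.308 in KO, and was not tested. Pf4, a chemokine of platelets that some macrophages also make, was at 0.180 and 1.93 RPKM in WT, listed at 0 in KO1 and at 0.287 in KO2, which is 14.9% of WT2. Aif1, a calcium-binding protein used as a marker of microglia, was at 0.0259 and 0.0324 RPKM in WT, listed at 0 in KO1 and at 0.0252 in KO2. These values of Aif1 amount to a few reads per kilobase, too few to show a difference. F13a1, the A chain of coagulation factor XIII, was very low in number 1, with 0.0176 RPKM in WT1 and 0.0359 in KO1, and was at 1.36 in WT2 and 0.643 in KO2, 47.3% of WT2 (limma adjusted p 0.729).

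Cyth4 and Rgs10 did not follow the rest. Cyth4, an exchange factor for ARF proteins, was at 0.553 and 1.92 RPKM in WT and at 1.11 and 0.803 in KO, so it was higher in KO in number 1 and lower in number 2. Rgs10, a regulator of G-protein signalling, was at 3.20 and 6.64 RPKM in WT and at 3.46 and 5.81 in KO, 108.2% and 87.5% of WT. Neither was called (limma adjusted p 0.977 and 0.986). Both are at 0.5 RPKM or more in KO1, where 22 of the 29 tested members are below it.

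The members also differed by replicate number. By limma's fit with both terms, 26 of 29 tested members were higher in number 2 and 0 lower. Of all genes tested, 35.8% were higher and 11.9% lower. The other 3 members were Cd53, Lyz2 and Cyth4. Mrc1, Trem2, Folr2, Cd84 and F13a1 reached the 0.5 RPKM needed for testing only in WT2 and KO2. Their direction was thus set by the filter, and their part of the count is no support. The ratio of WT2 to WT1 had a median of 4.201 over the 38 members, from 1.25 for Aif1 to 77.1 for F13a1. It was 17.1 for Mrc1, 13.47 for Cd163, 12.4 for Fcgr1 and 10.7 for Pf4, but 1.38 for Lyz2, 1.60 for Emr1 and 1.32 for Clec4d. In KO the ratio of number 2 to number 1 had a median of 14.6 over the 36 members above 0 in KO1, from 0.532 for Cd53 to 66.1 for Tyrobp. The WT1 value of Cd163 is below that of 1 read per kilobase. F13a1 in WT1 and Tyrobp in KO1 stood at a few reads per kilobase. The ratios of Cd163, F13a1 and Tyrobp are thus uncertain in size. The proportions of the members differed with the number too: per unit of C1qc, Lyz2 stood at 7.41 (WT) and 8.96 (KO) in number 1 and at 1.68 and 2.75 in number 2.

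**Figure D3:**
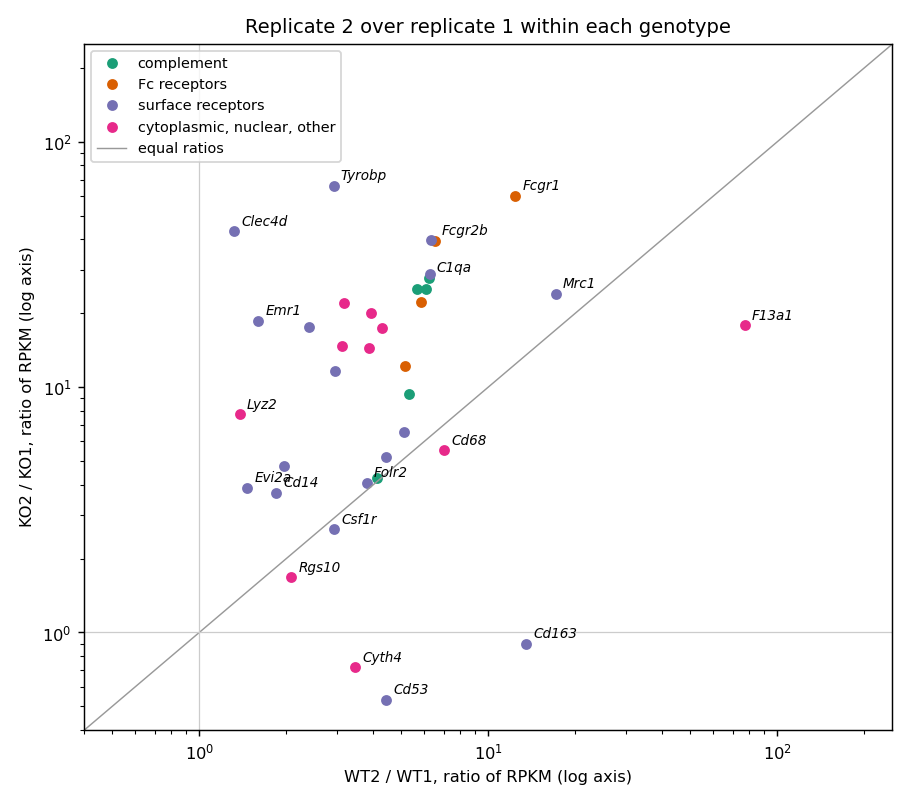
Ratio of RPKM in number 2 to number 1, in WT (horizontal, log axis) and in KO (vertical, log axis), for the 36 members above 0 in KO1, with the diagonal of equal ratios. Most members lie above the diagonal, Csf1r, Folr2 and C3ar1 lie near it, and F13a1, Cyth4, Cd53 and Cd163 lie furthest below it.

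Other genes of macrophages, from lists that also were drawn up with earlier results known, had smaller differences. Of 71 present genes for further macrophage surface and secreted proteins, 47 had lower and 10 had higher KO values within both numbers. Their median log2 difference was -0.19 in number 1 and -0.23 in number 2, and over all genes these medians were -0.016 and 0.0039. Of the 71, 37 were below 0.5 RPKM in every library, where the added 0.5 RPKM flattens differences. Over the 24 tested the medians were -0.36 and -0.37, against -0.95 and -0.89 for the 29 tested members. Of the 24 tested, Adam8, a membrane protease, fell, with 0.646 and 2.75 RPKM in WT against 0.0996 and 1.20 in KO (limma adjusted p 0.0329), and Cd80, a co-stimulatory ligand, rose, from 4.86 and 1.14 to 15.5 and 3.66 (0.00380). Of 48 myeloid signalling and oxidase genes 37 were lower and 3 higher within both numbers, and of the 17 tested Ncf1, a subunit of the phagocyte oxidase, fell, from 0.882 and 1.77 RPKM to 0.0930 and 0.850 (0.0351). Of 25 blood transcription factors 11 were lower and 2 higher within both numbers, and 0 of the 12 tested were called, either way; the highest was Cebpb, with 30.4, 56.3, 50.9 and 47.9 RPKM in the 4 libraries. Tmem119, the highest of the first list and used as a microglial marker, was at 7.52 and 72.9 RPKM in WT and at 12.04 and 61.7 in KO. Those levels are far above the 0.803 and 2.35 RPKM of Csf1r in WT, and which cells they come from was not tested.

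The growth factor and attractant genes for macrophages were more often higher than lower in KO. Of 18 present, 3 were lower and 11 higher within both numbers, and 0 of 13 tested were called. Csf1, the ligand of Csf1r, was at 184.3 and 35.2 RPKM in WT and at 210.3 and 37.3 in KO (limma adjusted p 0.906 with the number as a term). Cxcl12 was at 209.5 and 376.8 RPKM in WT and at 149.7 and 342.7 in KO, and Ccl2, which attracts monocytes, at 67.8 and 20.7 against 86.1 and 22.3. Csf1 was thus lower, and most members higher, in number 2. Lysosomal protein genes of most cells, such as Ctsd, at 310.9 and 303.6 RPKM in WT and 338.3 and 250.3 in KO, showed 2 of 21 genes lower in KO within both numbers.

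Most markers of other blood lineages were low. Of 8 erythroid genes present, 7 were below 0.5 RPKM in every library, as were 13 of 16 T and NK cell genes, 8 of 10 B cell genes, 8 of 10 neutrophil genes, 6 of 8 mast cell genes, 10 of 13 megakaryocyte and platelet genes and 9 of 13 dendritic cell and MHC class II genes. In the T and NK cell list the highest was Thy1, which fibroblasts carry too, at 252.0, 220.2, 444.4 and 234.8 RPKM in the 4 libraries. Of these 7 lists 0 tested genes were called in either fit. Among the 38 members, which were chosen with earlier results known, 34 reached 0.5 RPKM in at least 1 library. Of all 16271 genes, 4686 were below 0.5 RPKM in every library. So were 37 of the 71 further macrophage surface and secreted genes and 21 of the 48 myeloid signalling and oxidase genes.

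Some markers of other embryonic cell types were lower in KO as well, and their part in the result was not tested. Of 13 epithelial genes present, 5 were lower and 1 higher within both numbers, where 29.0% of all genes were lower and 23.1% higher. Their median log2 difference was -0.020 in number 1 and -0.27 in number 2. Their summed level was 19.3 and 19.4 RPKM in WT and 8.34 and 6.58 in KO. That is 43.3% and 34.0% of WT, where the members had 24.6% and 50.5%. The largest part of each sum was the keratin gene Krt19 alone (13.44 and 9.779 RPKM in WT, 3.562 and 2.702 in KO). Krt19 and another keratin gene, Krt7 (0.968 and 2.56 against 0.129 and 1.12), fell. Of 5 neuronal genes tested Tubb3, a tubulin, rose, with 18.5 and 14.7 RPKM in WT and 41.4 and 31.2 in KO. Of 15 endothelial genes 6 were lower and 3 higher, with sums of 7.32 and 13.03 RPKM in WT and 4.78 and 11.5 in KO. The fibroblast list went the other way, with 10 of 20 genes higher and 5 lower within both numbers and sums of 5074 and 5949 RPKM in WT and 5576 and 6219 in KO.

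**Figure D4:**
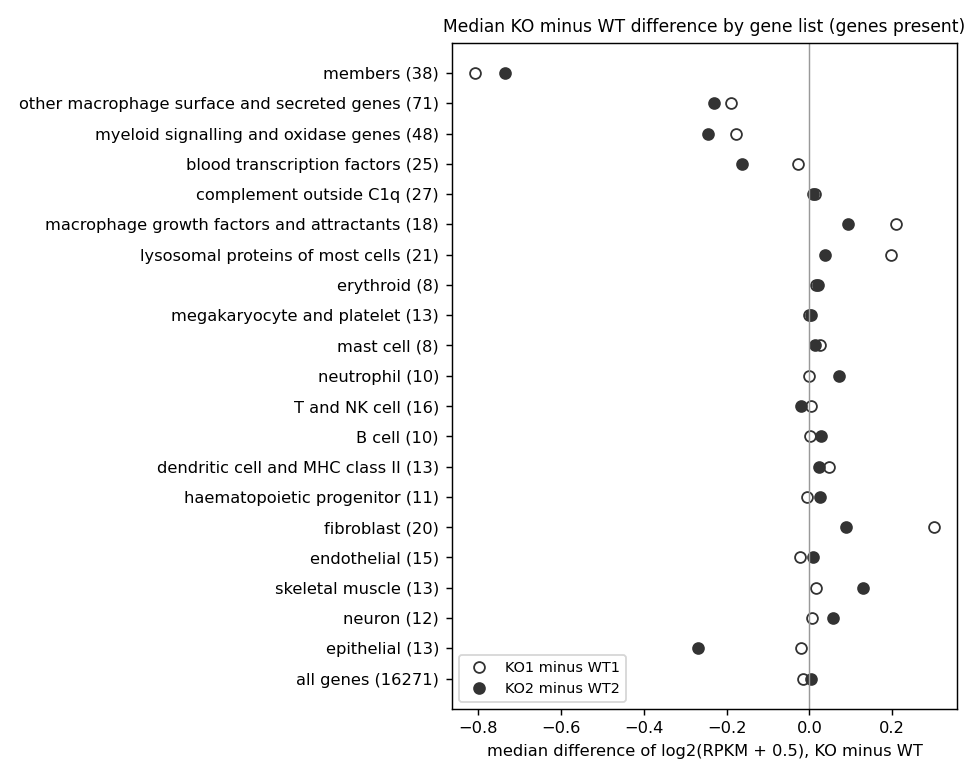
Median KO minus WT difference on log2(RPKM + 0.5) within number 1 (open) and number 2 (filled) for the 38 members, the lists of other genes and all 16271 genes, with the number of genes present in brackets. The members lie at -0.81 and -0.73, and lists of near-silent genes lie near 0 because the added 0.5 RPKM flattens low values. Over tested genes alone, which are not drawn, the members were at -0.95 and -0.89, the 4 epithelial genes at -0.65 and -1.01 and the 2 skeletal muscle genes at -1.85 and 0.036.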

How the data were processed

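Only the 4 RNA libraries entered. Per the labels' protocols, DNase-treated total RNA was depleted of rRNA with RiboMinus and poly-A RNA was then selected. The authors deposited RPKM per RefSeq transcript. The submitters' processing notes list mm9 and Partek, and the deposited readme mentions Cufflinks. For the aligner and for reads with several matches, the answer is "not given in the sources used here". Files of number 1 have 26886 rows and those of number 2 have 21136, on chromosomes 1 to 19. X-linked genes were not analysed here. Depth was read from olfactory receptor loci, where RPKM times length steps in whole reads (at least 95.7% of loci within 0.02 of a read).

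Rows were summed per symbol, and 11149 genes with at least 0.5 RPKM in 2 or more libraries were tested on log2(RPKM + 0.5) with limma 3.58.1 in R 4.3.3 (trend and robust variance, two-sided, Benjamini-Hochberg, threshold 0.05). On this scale low genes show too small a change. The planned design has genotype alone. A second fit adds the replicate number and leaves 1 residual degree of freedom (prior 9.68). The code was tested on simulated data. Every member is named, with full statistics for those called and for Csf1r, Emr1, Lyz2, C1qa and C1qb (also planned for Ptprc, which missed the filter). Of other lists, genes called and at most 3 of the highest mean are named. The members and lists were chosen with earlier results of these data known.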

Additional observations from a re-analysis of the deposited data

Results flagged for a closer look

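For 5 members KO lay on one side of WT in number 1 and on the other in number 2, and with 1 library of each kind per number the difference was not tested. The KO minus WT difference in number 2 less that in number 1, on log2(RPKM + 0.5), was 1.20 for Tyrobp, -1.50 for Cyth4, -0.75 for F13a1, -0.28 for Rgs10 and -0.060 for Cd163. F13a1 and Cd163 were at or under 0.0359 RPKM in both number 1 libraries, so their direction there rests on few reads.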

How the results depend on the processing

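The count of genes called in the planned design was 0, and 0 members, under every alternative without the replicate number, with each library left out included (0 to 0). With the replicate block 75 genes and 9 members were called. With the block and a pseudocount of 0.1 these were 37 and 1 (C5ar1), with a pseudocount of 1 they were 59 and 9 (7 of them kept, C5ar1 and Fcgr3 lost, C1qa and C1qb added), with a filter of 1 RPKM 70 and 12, with median-ratio scaling 140 and 12 (C1qc lost), with the highest transcript 3 and 0, and with no filter 0 and 0. The cause was not tested. Whether a number marks a shared source is not in the labels (r of the deviations 0.875 across genes). The median log2 change over the 38 members was -0.78, and it was -1.32 with a pseudocount of 0.1 and -0.60 with 1. It was -0.81 within number 1 and -0.73 within number 2, which was added after seeing the data, and leaving out 1 library gave -1.48 to -0.022, with -0.022 without KO1 and -0.047 without WT2. Fits with a library left out mix in the difference between the numbers. In them the change ran from -2.97 to 0.11 for Fcer1g, from -2.19 to 0.093 for Fcgr3 and from -3.80 to 0.034 for C1qa, each above 0 without KO1. Median-ratio scaling left 32 members lower within both numbers. The count of members higher in number 2, which was 26, ran from 19 to 30 over the 6 alternatives. It includes members that passed the filter only through number 2. The block could not be fitted with a library left out, since that leaves no residual degree of freedom. Low values limit what can be said of Aif1, Cd163, Clec4d and Fcgr1, and of Tyrobp and Trem2 in KO1, among others.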
